A study of Mus musculus with 10 samples.

Results

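The genes of oxidative phosphorylation were followed in mouse dendritic cells grown from bone marrow: the subunits of the 4 respiratory complexes and of ATP synthase, with 8 assembly factor genes that share their names. Members were chosen by gene symbol alone, as the probe sets whose single platform symbol begins with Ndufa, Ndufb, Ndufs, Ndufv, Ndufc, Sdh, Uqcr, Cox4, Cox5, Cox6, Cox7, Cox8 or Atp5. This gave 160 probe sets of 87 genes, out of 22690 probe sets on the array and 12394 genes that have a probe set with 1 symbol. Another 8 probe sets carry such a symbol beside others and were kept out. Complex I has 74 of the probe sets (39 genes), complex II 11 (7 genes), complex III 15 (8 genes), complex IV 32 (16 genes) and complex V 28 (17 genes).

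Each of the 10 conditions was measured on 1 Affymetrix array. Wild-type and CD14-deficient dendritic cells, from C57BL/6 mice of 6 to 8 weeks per the labels, were left unstimulated and harvested after 24 h, or given smooth LPS at 1 µg/ml for 48 or 60 h, alone or with 50 nM thapsigargin. CD14 is a co-receptor for LPS, and thapsigargin inhibits the SERCA pump and so raises calcium in the cytosol. All cells had been grown in medium with supernatant of a tumor line that secretes GM-CSF and, per the labels, were used when most carried CD11c. The series was designed around cell death genes under NFAT, a factor switched on by calcium, and respiratory genes were not its stated subject. Unstimulated cells differ from stimulated ones in time as well as in LPS, and the labels do not say how many mice a culture came from.

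The respiratory chain passes electrons from NADH (through complex I) and succinate (through complex II) to complex III and on to oxygen at complex IV, and complex V uses the proton gradient this builds to make ATP. Complex II also belongs to the tricarboxylic acid cycle. Most subunits are encoded in the nucleus and are measured here; those encoded in mitochondrial DNA fall outside the symbols used. Dendritic cells activated by LPS are known to turn towards glycolysis, with nitric oxide and itaconate among the products that restrain respiration. An array measures RNA in a mixed culture, so fewer cells of a type and less RNA per cell cannot be told apart, and a transcript level does not show how active a complex is.

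Each probe set has a signal, the brightness MAS5 assigns it after background correction, scaled here so that every array has the same 2% trimmed mean. A probe set was tested where its signal exceeded 98.5, the median over all arrays, on at least 2 of the 10 arrays. This held for 145 member probe sets of 82 genes. The 15 others lay between 0.72 and 105 on every array, and 10 of them belong to genes that another probe set covers. The 5 genes with no tested probe set are Cox4i2, Cox6a2, Cox6b2, Cox7a1 and Cox8b, all tissue-restricted isoforms of complex IV subunits. Their counterparts Cox4i1, Cox6a1, Cox6b1, Cox7a2 and Cox8a were all tested.

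2 arrays stood apart in cRNA yield and control signals. CD14-deficient LPS at 48 h had the lowest cRNA yield (15 µg) and 18S control signals of 114 to 385, and wild-type LPS at 60 h had the next lowest (19 µg), with 217 to 685. On the other 8 arrays, 18S signals ran from 1426 to 12656. The 3′ to 5′ ratio of Gapdh was 0.98 on the first against 0.71 to 0.85 elsewhere, and that of beta-actin was 1.62 on the second against 1.02 to 1.14 elsewhere. The labels give these arrays RNA integrity numbers of 10 and 8.6, where all 10 run from 8.4 to 10, so that measure does not set them apart. Cd14 lay between 1.85 and 7.35 in the CD14-deficient cells, below the floor of 13.3, against 1499 to 17729 in the wild type. The 14 dendritic markers summed to between 53725 and 91961, and those of T and NK cells (5, highest sum 146) and erythroid cells (2, highest sum 25.8) were near background. The 4 B cell markers summed to 521 on CD14-deficient LPS at 48 h and to between 63.9 and 236 elsewhere, the 6 stromal markers to between 617 and 3263, highest on wild-type LPS at 60 h, and the 5 mast cell and basophil markers to between 29.1 and 245. The 9 neutrophil markers summed to 18045 and 17307 on the unstimulated arrays and to between 1376 and 11853 after stimulation, and the 13 macrophage markers to 55990 and 62270 and then to between 21731 and 50073. The part of these shifts in the results on stimulation was not tested.

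Since no condition was repeated, the comparisons rest on a linear model (limma) with 6 genotype and treatment groups and 1 shared shift between 48 and 60 h. Its p-values measure how far the 2 times depart from that shift, with 3 residual degrees of freedom, and say nothing of how much cultures or mice vary. The adjusted p is Benjamini-Hochberg over the 12660 probe sets tested in each comparison, two-sided, and a change is called below 0.05.

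Between the unstimulated cells of the 2 genotypes, most respiratory transcripts were nearly equal. The median absolute log2 difference over the 145 members was 0.07, against 0.14 over all tested probe sets, and 2 of 145 members differed 2-fold or more, with a background of 1.48% over all probe sets. These 2 were a secondary probe set of Sdhd, at 49.4 in wild-type and 236 in CD14-deficient cells, and Atp5md, which encodes a small membrane subunit of ATP synthase, at 4147 and 1668. Here 1 array was set against 1, and the differences are given without a test.

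LPS changed few members in wild-type cells, and they moved in both directions. Complex I lost transcript for Ndufs8 and Ndufb7, complex V for Atp5a1, and complex III gained transcript for Uqcr10. Of 145 probe sets, 6 rose (4.14%) and 9 fell (6.21%), where 6.46% of all tested probe sets rose and 7.64% fell. A change of 2-fold or more was found in 17 members (11.7%), against 25.7% of all probe sets, and the median absolute log2 difference was 0.30 against 0.54. Both called shares of the respiratory genes lay somewhat under those of the whole array. The median log2 difference was -0.17 over the members and -0.07 over all probe sets. With quantile normalization these were -0.18 and 0.01, and without scaling -0.24 and -0.14.

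The count depends on single arrays. Without CD14-deficient LPS at 48 h, or without the same cells at 60 h, 51 members were called (12 higher and 39 lower in each fit), among them all 15; the residuals of that pair of arrays, 1 of them with the lowest cRNA yield, then no longer enter the spread. That is 35.2% of the members, against 41.5% of all tested probe sets in each fit. Without any other stimulated array the count was 0 to 2: 0 without wild-type LPS at 48 h, and 2 without wild-type LPS at 60 h, either wild-type array with thapsigargin or either CD14-deficient array with thapsigargin. The 2 that remained in each of those 5 fits were Sdhd 1437489_x_at and Uqcr10 1434340_at. Of all probe sets, 2.47% to 3.08% were called in those 5 fits.

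The filter on low signals also bears on the count. Of the 15, the called probe sets of Ndufs4, Ndufaf4, Ndufab1, Atp5c1 and Sdhd did not exceed 98.5 on all 10 arrays. That of Ndufs4 exceeded it on the unstimulated arrays only, that of Ndufaf4 on both of those and on CD14-deficient LPS at 60 h, and those of Ndufab1 and Atp5c1 on stimulated arrays only. These 4 passed the filter wholly or mostly through the condition where they are high, so their calls are given as values and add no support to the counts. With the filter that asks for all 10 arrays, 10 of 137 members were called (7.3%), all of them among the 15, against 10.2% of 9489 probe sets. With no filter, 10 of the 15 were called: those lost were Ndufab1 1435934_at, Ndufb7 1416417_a_at, Ndufs8 1423908_at, Uqcr10 1434341_x_at and Atp5a1.

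**Figure D1:**
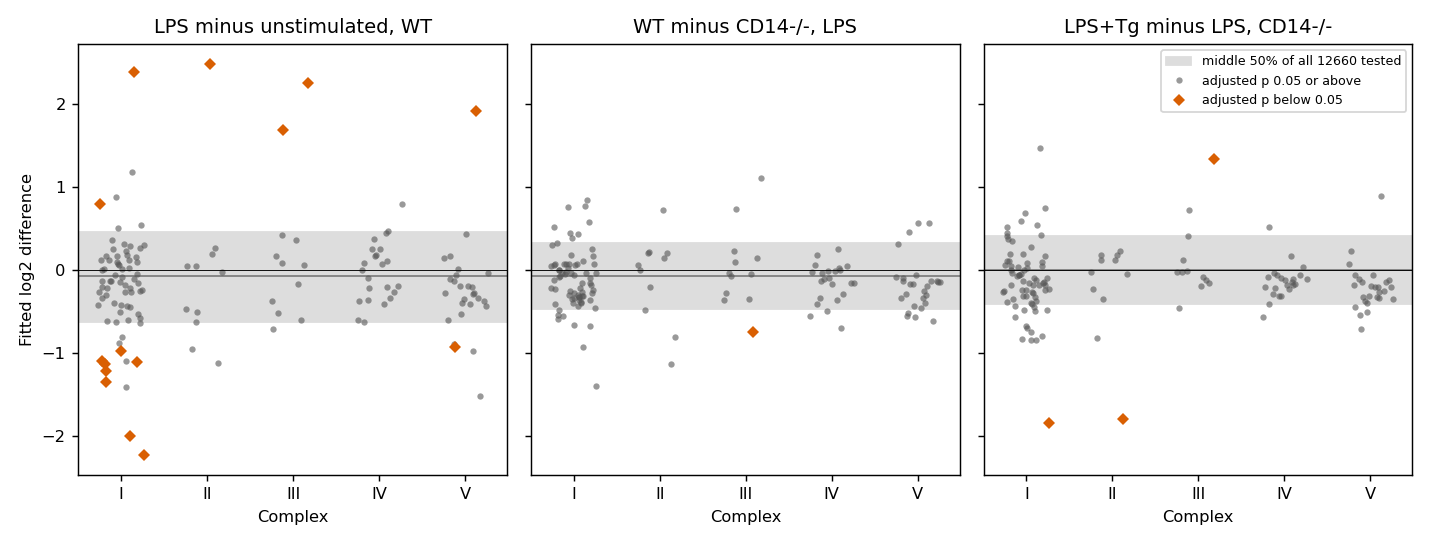
Fitted log2 differences of the 145 tested member probe sets, by complex, in 3 comparisons; diamonds have an adjusted p below 0.05, the grey band holds the middle 50% of all tested probe sets and the grey line is their median. In wild-type cells under LPS most members lie inside the band, with 6 called above and 9 below; in the other comparisons 1 and 3 are called.

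Ndufs8, one of the iron-sulfur proteins that carry electrons through complex I, was the member whose fall rested on most probe sets. Its brightest, 1434579_x_at, read 2318 in unstimulated wild-type cells, 1091 and 918 after LPS for 48 and 60 h, and 1535 and 1313 with thapsigargin. In CD14-deficient cells it read 2697, then 1669 and 1171, and 2039 and 1570 with thapsigargin. Both unstimulated arrays lie above all 8 stimulated ones, a separation that was not counted over all probe sets. In the wild type 4 of its 6 probe sets fell, by log2 changes of -1.09 to -1.35, with -1.21 ± 0.20 (SE) for the brightest (limma adjusted p = 0.0176); the other 2 were also lower, by -0.42 and -1.41, without passing. Of the 4 calls, that of 1423908_at was also lost without scaling, and those of 1423908_at and 1455283_x_at without the term for time. In CD14-deficient cells the brightest gave -0.95 ± 0.20 (adjusted p = 0.072).

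Ndufb7, an accessory subunit of the membrane arm of complex I, fell on both its probe sets. The brighter, 1416417_a_at, read 2823 in unstimulated wild-type cells and between 1199 and 1443 on the 4 stimulated wild-type arrays, a log2 change of -1.11 ± 0.24 under LPS (adjusted p = 0.0357). CD14-deficient cells read 3219 unstimulated, 1942 and 2216 under LPS, and 1306 and 1088 when thapsigargin was added. Under LPS alone the CD14-deficient arrays therefore lay between their unstimulated array and every wild-type stimulated array, and with thapsigargin they lay between 1088 and 1306, the range of the wild type or below it. The thapsigargin difference in CD14-deficient cells was -0.80 ± 0.20 and missed the threshold (adjusted p = 0.0664), as did the genotype difference under LPS (-0.67 ± 0.20, adjusted p = 0.101).

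Atp5a1 encodes the alpha subunit of the catalytic head of ATP synthase. Its probe set 1449710_s_at read 4020 in unstimulated wild-type cells, 2210 and 2017 under LPS, and 2157 and 1988 with thapsigargin, a log2 change under LPS of -0.93 ± 0.20 (adjusted p = 0.0329); the call was also lost without the intensity trend. CD14-deficient cells read 4234, then 2833 and 3242, and 1781 and 1940. The other 2 probe sets were lower too, by -0.89 and -1.52, and did not pass. All 3 lie lower on each of the 8 stimulated arrays than on either unstimulated one. The share of all probe sets that do so was not counted.

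Ndufa2, a small accessory subunit of complex I with 1 probe set, rose. Unstimulated it read 2759 in the wild type and 2647 without CD14. After LPS it read 4580 and 5004 in the wild type and 3900 and 3886 in CD14-deficient cells, and with thapsigargin between 3991 and 4577 over both genotypes. The unstimulated and stimulated values do not overlap, and how many of all probe sets separate in this way was not counted. The change in the wild type was 0.80 ± 0.16 (adjusted p = 0.0281). In CD14-deficient cells it was 0.56 ± 0.16 (adjusted p = 0.125). The call in the wild type was lost without scaling and without the intensity trend.

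Uqcr10, a small subunit of complex III, rose on 2 of its 3 probe sets. On 1434340_at it read 463 in unstimulated wild-type cells, 2386 and 2048 under LPS, and 2368 and 2580 with thapsigargin, a log2 change under LPS of 2.26 ± 0.28 (adjusted p = 0.0095). CD14-deficient cells read 454 unstimulated, 826 and 1271 under LPS, and 2484 and 2713 with thapsigargin. There the LPS difference was 1.18 ± 0.28 (adjusted p = 0.0928), and thapsigargin raised it by a further 1.34 ± 0.23 (adjusted p = 0.0314). A second probe set, 1434341_x_at, rose by 1.68 under LPS in the wild type (adjusted p = 0.0257). The brightest, 1424364_a_at, did not follow: it read 1971 to 3255 over the 10 arrays, with 0.43 ± 0.32 (adjusted p = 0.404). The size of the change in Uqcr10 thus depends on the probe set.

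The same split was seen in Sdhd, Ndufab1, Ndufs4, Ndufaf4 and Atp5c1, where the called probe set is a dim one. Ndufs4, an accessory subunit of complex I, fell by -2.23 ± 0.43 on 1418117_at (127 unstimulated, 22.1 and 32.9 under LPS in the wild type; adjusted p = 0.0273, lost without the term for time), while its brightest, 1448959_at, stayed between 1071 and 1472 on all arrays. Ndufab1, the mitochondrial acyl carrier protein, rose by 2.38 ± 0.48 on 1435934_at, from 26.7 to 113 and 171, while 1428159_s_at read 2622, 2624 and 2329 on the same arrays. Atp5c1, the gamma subunit of the central stalk, rose by 1.92 ± 0.30 on 1438809_at but differed by -0.41 on 1416058_s_at. The assembly factor Ndufaf4 fell by -2.00 ± 0.33 on 1435333_at and by -0.14, without passing, on 1427997_at.

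Sdhd, a membrane anchor of complex II, rests on 1 array. Its 1437489_x_at read 49.4 in unstimulated wild-type cells and between 147 and 304 on the other 9 arrays, unstimulated CD14-deficient cells included (236). The fitted rise of 2.49 ± 0.31 (adjusted p = 0.0092) is measured from that single value, and in CD14-deficient cells the same probe set gave -0.48. The brightest probe set, 1428235_at, read 2919 unstimulated and 3990 and 3109 under LPS. When each gene was represented by its brightest probe set alone, 4 members were called: Ndufa2 higher, and Ndufs8, Ndufb7 and Atp5g1 lower. That is 4.88% of 82 members, against 15.9% of all 7483 genes tested in that way.

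**Figure D2:**
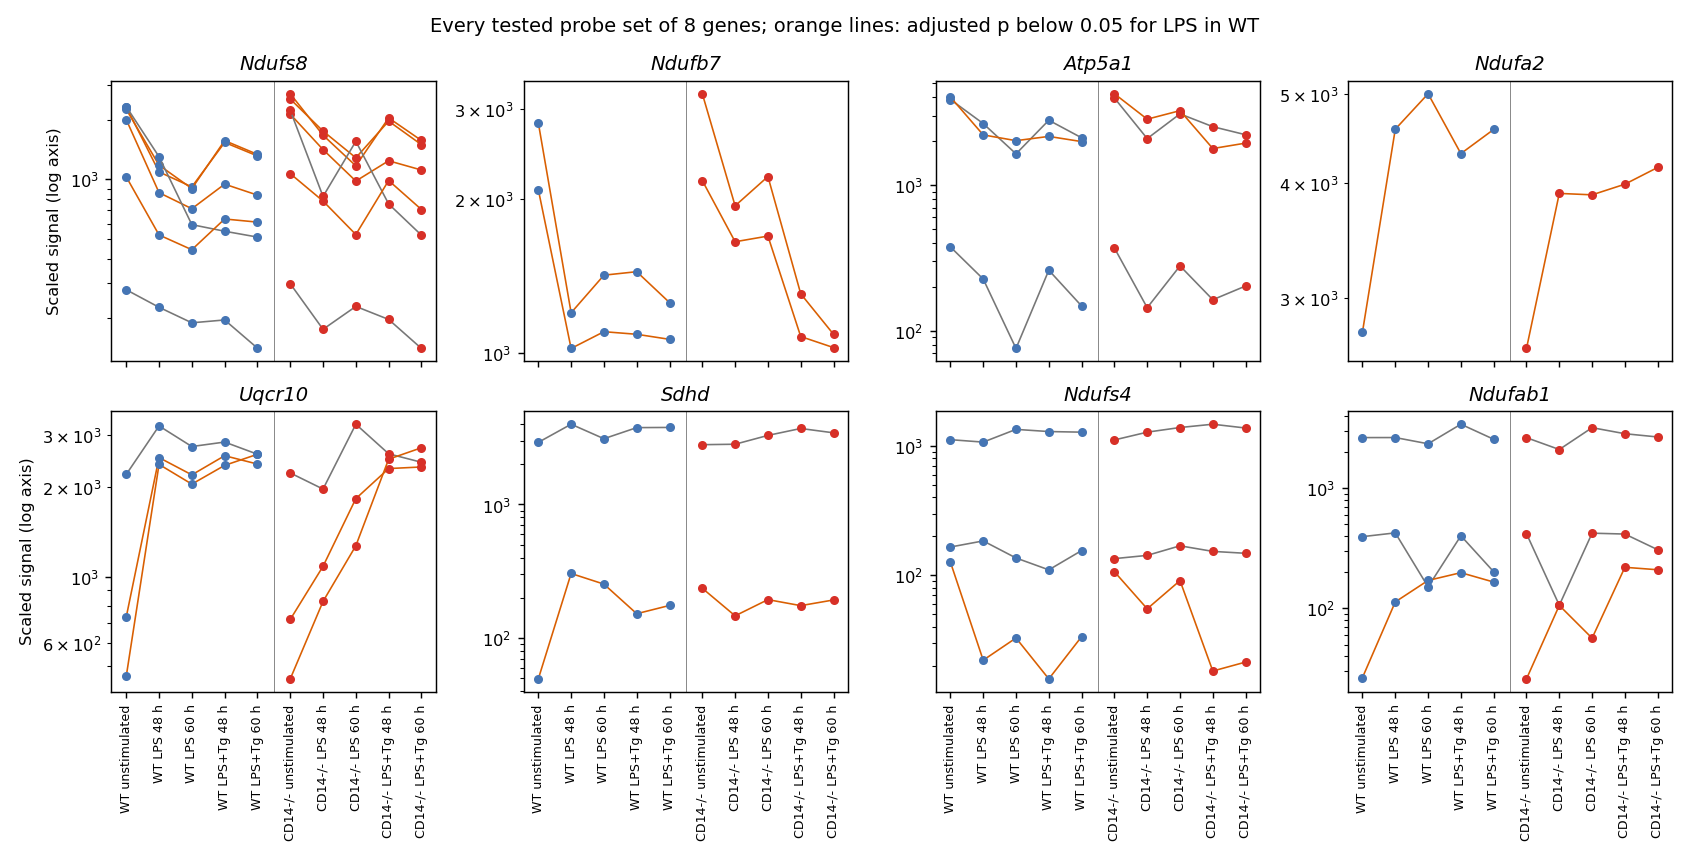
Scaled signal, on a log axis, of every tested probe set of 8 member genes on each of the 10 arrays (blue points wild type, red points CD14-deficient; Tg is thapsigargin); orange lines join probe sets called for LPS in the wild type, grey lines the others. Ndufs8, Ndufb7 and Atp5a1 are lower on the stimulated arrays on all their probe sets, while in Uqcr10, Sdhd, Ndufs4 and Ndufab1 the brightest probe set does not follow the called one.

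In complex V most probe sets were lower without being called. In the wild type, 22 of its 27 probe sets were lower under LPS, with a median log2 difference of -0.28 (23 of 27 without scaling, 22 with quantile normalization), and 2 passed, Atp5a1 lower and Atp5c1 higher. Of all 12660 probe sets, 6766 were lower, with a median of -0.07. That median was -0.14 without scaling and 0.01 with quantile normalization. Some genes have several of the 27 probe sets, such as Atp5a1 and Atp5k with 3 each. The c subunits that form the rotating ring of the enzyme come from 3 genes. Atp5g1 read 2553 unstimulated, then 1370 and 1234 (-0.97 ± 0.25, adjusted p = 0.051), and Atp5g3 read 10605, then 7109 and 6838 (-0.61 ± 0.16, adjusted p = 0.054). Atp5g2 differed by -0.20 ± 0.19. Atp5g1 and Atp5g3 were lower on both wild-type LPS arrays than on the unstimulated one, and neither passed.

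Complex IV varied least under LPS in the wild type, with a median absolute log2 difference of 0.26. None of its 23 tested probe sets passed in any of the 9 comparisons, and its median log2 difference under LPS in the wild type was 0.00. Cox7a2, a small subunit, read 9050 in unstimulated wild-type cells, 10278 and 10077 under LPS, and between 9012 and 10809 over all 10 arrays. Cox6b1, which sits on the outer face of the enzyme, varied 1.18-fold from lowest to highest array on 1416565_at, the smallest range of any member. The nearest to the threshold were Cox5b 1416902_a_at, at -0.62 ± 0.16 (adjusted p = 0.055), and Cox7a2l, which helps join complexes III and IV, at 0.79 ± 0.21 (adjusted p = 0.060).

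Of the remaining complex II genes, Sdhb, the iron-sulfur subunit, gave -0.95 ± 0.29 (adjusted p = 0.081) under LPS in the wild type. Sdha, the flavoprotein that oxidizes succinate, gave 0.05 ± 0.24 and Sdhc, the other anchor, -0.46 ± 0.33, and neither passed. The assembly factors of complexes I and II ranged under LPS in the wild type from -1.12 ± 0.33 for Sdhaf4 (adjusted p = 0.0762) to 0.54 ± 0.25 for Ndufaf3 on their brightest probe sets, and none of those passed. The brightest member of each complex varied little: Ndufa1 (complex I) read 6086 to 9605 over the 10 arrays, Sdhd 2804 to 3990, Uqcrb (complex III) 11600 to 14815, Cox6a1 9501 to 11740 and Atp5g3 6838 to 10605. Ndufa4, now counted with complex IV, gave 0.31 ± 0.18.

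In CD14-deficient cells no member passed under LPS. Over all probe sets 1.56% rose and 1.28% fell, and 17.6% were past 2-fold, against 4 of 145 members. The lowest adjusted p of a member was 0.072, and 23 members (15.9%) had an unadjusted p under 0.05, as did 21.3% of all probe sets. Of the 15 probe sets called in the wild type, 14 had the same sign here. Those of Ndufs4, Ndufaf4, Ndufab1 and Atp5c1 passed the filter wholly or mostly through the condition where they are high. The same count was not made over all probe sets, so this one is a description and adds no support. The response itself was not shown to differ between genotypes: no member passed the test of that difference, nor did any of the 12660 probe sets (0%), with 5 members (3.45%) and 8.29% of all probe sets at an unadjusted p under 0.05 and a lowest adjusted p of 0.413 among the members; without CD14-deficient LPS at 60 h, 8 members (5.52%) and 16.4% of all probe sets passed. The count of 0 for LPS in CD14-deficient cells also turned on single arrays, with 13 members called without the array at 48 h (8.97%, against 13.3% of all probe sets) and 43 without the one at 60 h (29.7%, against 36.0%).

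The genotypes were next compared under LPS. One member passed: Uqcrfs1, the Rieske iron-sulfur protein of complex III, was lower in wild-type cells by -0.74 ± 0.15 (adjusted p = 0.049). It read 1428 and 1577 in the wild type and 2503 and 2524 in CD14-deficient cells, against 2271 and 2407 unstimulated. With thapsigargin it read 1770 and 1783 in the wild type and 2282 and 2348 in CD14-deficient cells. On all 4 stimulated wild-type arrays it was lower than on any CD14-deficient one, which was not counted over all probe sets. The background was 2.5% higher and 2.18% lower, and 15% past 2-fold, against 3 of 145 members. The call was lost on values without scaling, with the filter that asks for all 10 arrays, without the intensity trend and without any 1 of 6 arrays (wild-type LPS at 48 or 60 h, and each of the 4 with thapsigargin). Without either CD14-deficient LPS array, 26 (48 h) and 36 (60 h) members were called. These are 17.9% and 24.8% of the members, against 16.04% and 41.5% of all probe sets.

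By brightest probe set, the largest genotype differences in each complex that missed the threshold were read in both directions. Those of members lower in the wild type come first. In complex V these were Atp5h, of the peripheral stalk (-0.56 ± 0.12, adjusted p = 0.058), and Atp5e, the epsilon subunit of the central stalk (-0.55 ± 0.13, adjusted p = 0.067). Complex II had its assembly factors Sdhaf4 (-1.13 ± 0.27) and Sdhaf1 (-0.81 ± 0.31), complex I the accessory subunits Ndufb7 and Ndufa3 (-0.56 ± 0.17), complex III the core protein Uqcrc2 (-0.36 ± 0.15), and complex IV Cox5b (-0.36 ± 0.12) and Cox4i1 (-0.33 ± 0.11). The largest in the other direction were Ndufa12 (0.58 ± 0.26) and Ndufaf4 (0.39 ± 0.20) in complex I, Sdhd (0.21 ± 0.18) and Sdha (0.20 ± 0.20) in complex II, Uqcr10 (0.23 ± 0.26) in complex III, Cox7c (0.18 ± 0.34) in complex IV, and Atp5md (0.56 ± 0.23) and Atp5b, the catalytic beta subunit (0.31 ± 0.32), in complex V; none of these passed. The other genes nearest to a rise were slightly below 0: Uqcrq at -0.03 and Cox6b1 at -0.01.

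The 2 times did not give the same picture for the group. At 48 h, 66 of 145 members were lower in the wild type than in CD14-deficient cells under LPS, with a median log2 difference of 0.06. Of all 12660 probe sets, 6951 were lower at that time. At 60 h, 124 of 145 were lower, with a median of -0.29, where 6705 of all 12660 were. Without scaling these counts were 77 and 124, and with quantile normalization 68 and 125. Only 1 member was 2-fold apart in 1 direction at both times, Ndufs4 1418117_at (-1.32 and -1.47), against 5.7% of all probe sets. The dim Ndufab1 probe set 1428160_at was 2-fold apart in opposite directions, 2.00 at 48 h and -1.48 at 60 h. Both arrays of lowest cRNA yield enter here, 1 at each time, and their part in these differences was not tested.

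**Figure D3:**
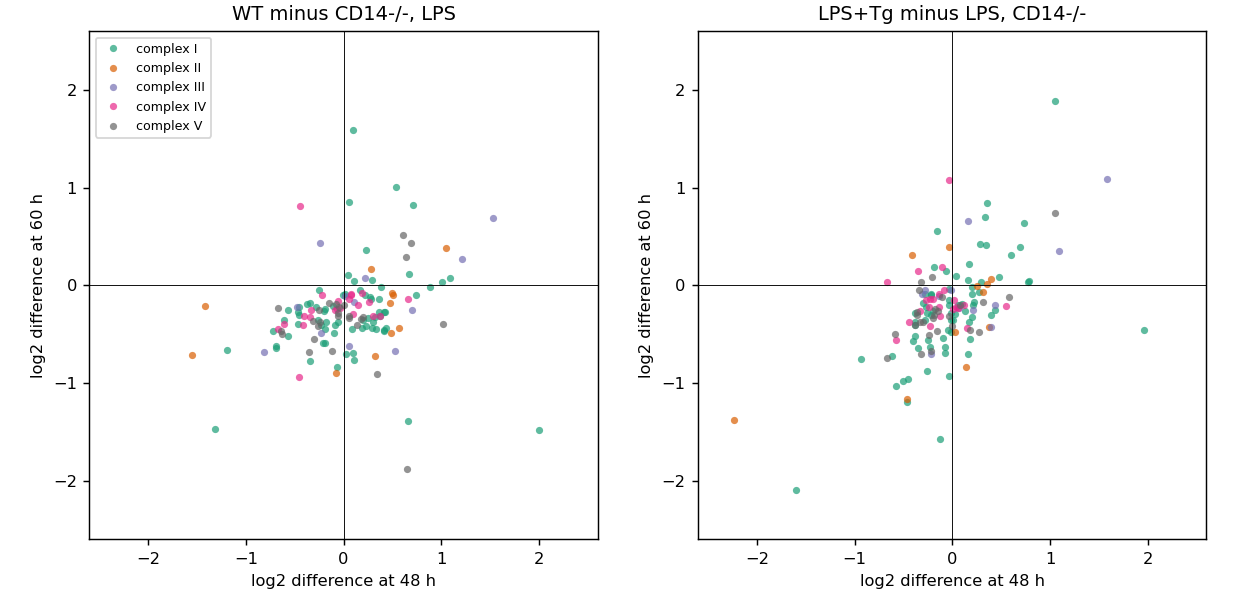
Log2 differences of the 145 tested member probe sets at 48 h (horizontal axis) and at 60 h (vertical axis), for wild type minus CD14-deficient under LPS and for LPS with thapsigargin minus LPS in CD14-deficient cells; each point is a probe set, coloured by complex. Most points of the left panel lie below 0 at 60 h (124 of 145) and spread to both sides at 48 h; in the right panel 113 are below 0 at 60 h and 85 at 48 h.

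The array on which the members stood highest is CD14-deficient LPS at 60 h. Over all tested probe sets it was also the stimulated array nearest to the unstimulated mean, with quartiles of -0.34 and 0.35 in log2. On the other stimulated arrays the lower quartile ran from -0.70 to -0.53 and the upper from 0.47 to 0.61. The median of the members on CD14-deficient LPS at 60 h was 0.05 above that mean. When each member was put on its own scale of z-scores over the 10 arrays, the mean over the members was 0.74 there, 0.33 and 0.37 in the unstimulated wild-type and CD14-deficient cells, 0.17 in wild-type LPS at 48 h and -0.05 in CD14-deficient LPS at 48 h. It was -0.37 in wild-type LPS at 60 h and between -0.46 and -0.14 on the 4 arrays with thapsigargin. Between 48 and 60 h, 101 of 145 members were higher at the later time in CD14-deficient LPS cells (median 0.17) and 112 of 145 were lower in wild-type LPS cells (median -0.13). Of all 12660 probe sets, 6118 were higher in the former and 5513 lower in the latter. Without scaling the member counts were 89 (median 0.08) and 112 (-0.13). With quantile normalization they were 101 (0.19) and 97 (-0.08). In CD14-deficient LPS cells the macrophage markers also summed to 21731 at 48 h and 46477 at 60 h, and the neutrophil markers to 3175 and 11853. Most of the neutrophil rise was in Mmp8, at 1264 and 9582, and the list did not move together. S100a8 read 1242 and 1812, Camp 345 and 356, and S100a9 238 and 24.0. The dendritic markers went the other way, with sums of 91961 and 69373. Among them, Itgax, which encodes CD11c, read 892 and 6941, but nearly all the others were lower at 60 h. Ccr7 read 16168 and 7190, Flt3 1149 and 334, and Cd86 8105 and 3078. Of the macrophage markers, Cd68 read 1702 and 9656. Their part in the shift of the members was not tested. The members' opposite shifts cancel in the model's single shift, for which no member and no probe set passed (0%), with 8 members and 1141 of all probe sets at an unadjusted p under 0.05; its fitted changes reached 2-fold in 0 members and 1% of all probe sets.

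Of the members, 3 differed 2-fold between the times in wild-type LPS cells, with a background of 8.28%, 1 in wild-type cells with thapsigargin (1.86%), 1 in CD14-deficient LPS cells (17.7%) and 0 in CD14-deficient cells with thapsigargin (2.76%).

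**Figure D4:**
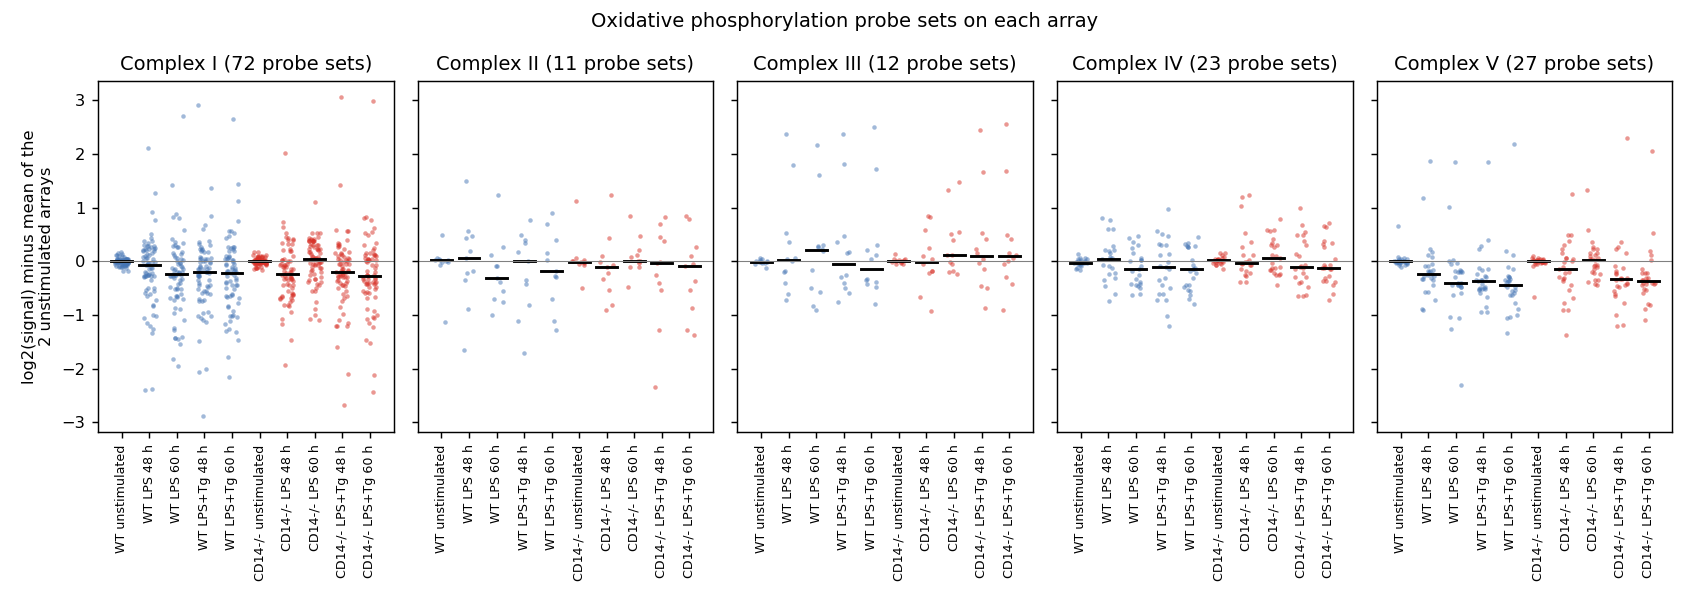
Log2 signal of each tested member probe set on each array, relative to its mean over the 2 unstimulated arrays, by complex (blue wild type, red CD14-deficient; black bars are medians). Medians of complexes I and V are below 0 on every stimulated array of both genotypes except CD14-deficient LPS at 60 h. On that array the medians are at or slightly above 0 in all 5 complexes.

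Thapsigargin left the respiratory genes of LPS-treated wild-type cells without a called change. The median absolute log2 difference was 0.13 over the members, 0 were past 2-fold against 4.63% of all probe sets, and limma called 0 members and 0.0316% of all probe sets, with 12 members (8.28%) and 9.42% of all probe sets at an unadjusted p under 0.05. No member was 2-fold apart at both times (background 2.58%). Among the fits that left out 1 array, 2 members were called without CD14-deficient LPS at 48 h (1.38%, against 5.73% of all probe sets), 3 without it at 60 h (2.07%, against 5.79%) and 0 in the others.

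In CD14-deficient cells thapsigargin changed 3 members: Uqcr10 1434340_at rose, and Sdhaf4 and Ndufs4 1418117_at fell. Sdhaf4, an assembly factor of complex II, read 843 and 915 under LPS and 180 and 353 with thapsigargin (-1.80 ± 0.27, adjusted p = 0.0262). In the wild type it read 289 and 558 under LPS and 279 and 377 with thapsigargin, and 874 and 950 in the unstimulated cells of the 2 genotypes. The CD14-deficient LPS arrays thus lay near the unstimulated ones. Of the CD14-deficient arrays with thapsigargin, the one at 60 h lay within the range of the stimulated wild-type arrays and the one at 48 h below it. Ndufs4 1418117_at fell by -1.84 ± 0.36 (adjusted p = 0.040), from 55.2 and 91.2 to 18.2 and 21.4. All 4 of those values lie below 98.5, and the probe set was tested only through the unstimulated arrays, so this call is given as values alone. Against 1 of 145 members higher and 2 lower, 3.6% of all probe sets rose and 2.98% fell; 15.2% were past 2-fold, against 4 members.

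These 3 calls were lost without any 1 of 6 arrays (wild-type LPS at 48 or 60 h, and each of the 4 with thapsigargin) and with no filter, and that of Ndufs4 also without the term for time. Without CD14-deficient LPS at 48 h and at 60 h, 42 and 30 members were called, or 29.0% and 20.7%, against 25.4% and 38.1% of all probe sets. In direction, 105 of 145 members were lower with thapsigargin in CD14-deficient cells, with 24 of 27 in complex V and 20 of 23 in complex IV, and a median log2 difference of -0.15 against 0.00 over all probe sets. The 2 times gave 85 lower at 48 h and 113 at 60 h, and 109 and 95 without scaling. Of all 12660 probe sets, 6465 and 6141 were lower with scaling. Without scaling the median of all probe sets was itself -0.21 at 48 h and 0.15 at 60 h, against -0.25 and -0.11 for the members. This comparison shares both CD14-deficient LPS arrays with that of the genotypes. The 4 members 2-fold apart at both times were Uqcr10 1434340_at and Ndufab1 1435934_at (higher) and Ndufs4 1418117_at and Sdhaf4 (lower), against 7.61% of all probe sets. No member passed the test that the thapsigargin difference was unlike between genotypes, nor did any probe set (0%), with 8 members (5.52%) and 13.7% of all probe sets at an unadjusted p under 0.05; without CD14-deficient LPS at 48 h or at 60 h, 2 and 11 members passed it (1.38% and 7.59%, against 4.42% and 23.3%).

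By brightest probe set, the members furthest down with thapsigargin in CD14-deficient cells, other than Sdhaf4, were Ndufb2 (-0.83 ± 0.25) and Ndufb7 in complex I, Sdhb (-0.82 ± 0.24) in complex II, Uqcr11 (-0.46 ± 0.20) and Uqcrh (-0.20 ± 0.13) in complex III, Cox6c (-0.32 ± 0.14) and Cox4i1 (-0.29 ± 0.11) in complex IV, and Atp5e (-0.54 ± 0.13) and Atp5j (-0.51 ± 0.15) in complex V. Those furthest up were the assembly factors Ndufaf4 (0.69 ± 0.20) and Ndufaf5 (0.52 ± 0.30), Sdhd (0.23 ± 0.18) and Sdha (0.13 ± 0.20), Uqcrc1 (0.12 ± 0.28), Cox7c (0.52 ± 0.34) and Cox8c (0.04 ± 0.31), and Atp5b (0.23 ± 0.32); Uqcr10 (-0.02) and Atp5d (-0.06) came next. None of these passed.

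With LPS and thapsigargin together, the respiratory genes of the 2 genotypes were close. The median absolute log2 difference was 0.09 over the members and 0.18 over all probe sets. Limma called 0 members and 0.0316% of all probe sets, with 2 members (1.38%) and 3.90% of all probe sets at an unadjusted p under 0.05. None was past 2-fold in the fit (background 1.56%) or at both times (background 0.956%).

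Other genes that supply or build the chain were read by their brightest probe set, from lists chosen by function. Beside these counts, 6.46% of all tested probe sets rose and 7.64% fell under LPS in the wild type. With 1 probe set per gene, 15.9% were called there. With thapsigargin in CD14-deficient cells 3.6% of all probe sets rose and 2.98% fell. The lists were not tested as sets. Under LPS in the wild type, 2 of 12 tested genes of the tricarboxylic acid cycle fell and 0 rose, with a median log2 difference of -0.69. Fh1, fumarate hydratase, read 2686 unstimulated and 654 and 688 after LPS (-2.00 ± 0.20, adjusted p = 0.006). In CD14-deficient cells it read 3044, then 1324 and 1314 (-1.21 ± 0.20, adjusted p = 0.0423), so that it was lower in the wild type under LPS (-0.98 ± 0.17, adjusted p = 0.0391). Idh3a, a subunit of isocitrate dehydrogenase, fell by -1.35 ± 0.28 in the wild type. Of 7 tested electron carriers and related genes, 2 fell: Etfa and Etfb, the flavoprotein pair that feeds electrons from fatty acid oxidation, by -1.26 ± 0.24 and -1.77 ± 0.30. Slc25a20, which carries acylcarnitines into mitochondria, rose by 1.15 ± 0.20, as 1 of 8 tested carriers and channels.

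Among 16 tested genes of mitochondrial biogenesis and transcription, 3 rose and 0 fell under LPS in the wild type. Of all tested probe sets, 6.46% rose and 7.64% fell. Nrf1, a transcription factor known to act on many respiratory genes, read 82.0 unstimulated, 242 and 289 under LPS and 364 and 354 with thapsigargin (1.69 ± 0.29 under LPS, adjusted p = 0.0192). Gabpb1, a subunit of the ETS-family factor GABP (NRF2), read 121, then 408 and 507, and 634 and 552 (1.92 ± 0.27, adjusted p = 0.0124). The other was Polg2, the accessory subunit of the mitochondrial DNA polymerase (2.45 ± 0.34). In CD14-deficient cells Gabpb1 read 115.4 unstimulated, 164 and 163 under LPS, and 833 and 739 with thapsigargin. It was thus higher in the wild type under LPS (1.47 ± 0.22, adjusted p = 0.0326), and thapsigargin raised it in CD14-deficient cells (2.26 ± 0.22, adjusted p = 0.0154), as it did Nrf1 (1.26 ± 0.24) and Polg2 (1.68 ± 0.28). The list's median was -0.12 under LPS in the wild type.

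**Figure D5:**
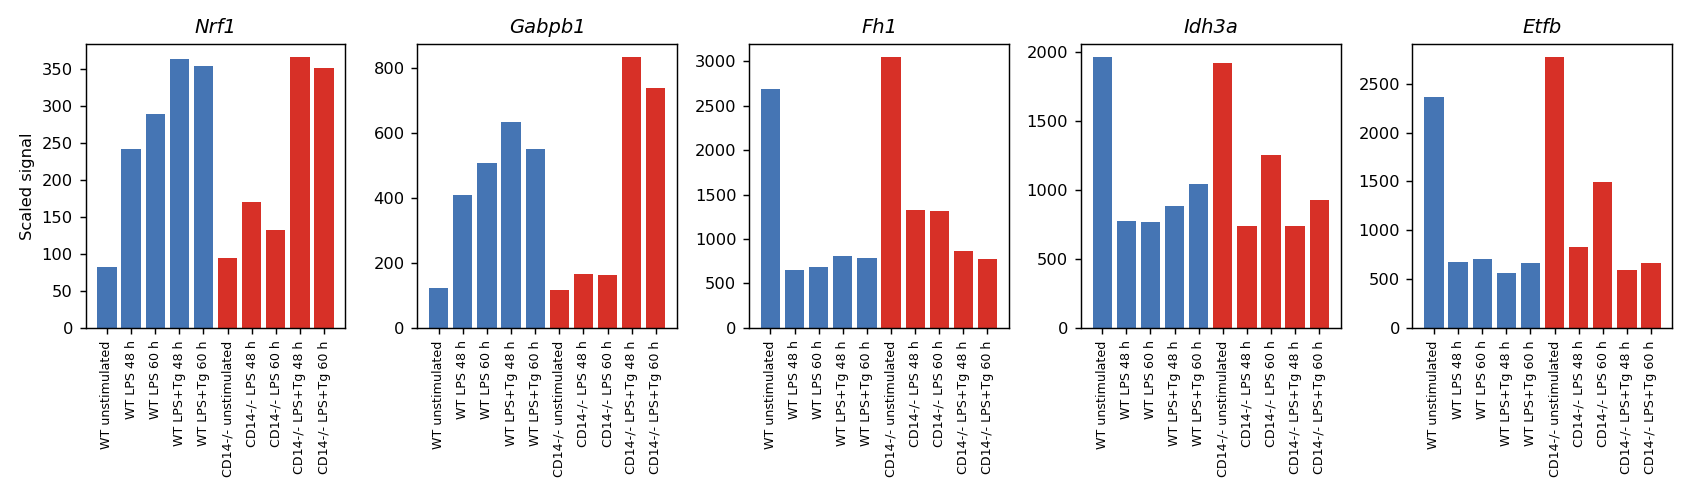
Scaled signal on each of the 10 arrays (bars; blue wild type, red CD14-deficient) of 2 transcription factor genes, Nrf1 and Gabpb1, and of 3 metabolic genes, Fh1, Idh3a and Etfb. Gabpb1 reads 164 and 163 in CD14-deficient LPS cells against 408 and 507 in the wild type, and Fh1 1324 and 1314 against 654 and 688.

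Acod1, the enzyme that makes itaconate, rose in both genotypes, by 2.16 ± 0.41 in the wild type and 2.49 ± 0.41 in CD14-deficient cells, as the 1 called gene of 6 tested whose products restrain respiration. Of 8 tested assembly genes of complex IV, Cox17 (0.84 ± 0.20), which delivers copper, and Surf1 (0.78 ± 0.19) rose, and of 11 tested for the other complexes Atpaf2 (0.99 ± 0.24) rose. Of 74 mitochondrial ribosomal protein genes, 2 rose and 2 fell in the wild type, and 2 rose and 1 fell with thapsigargin in CD14-deficient cells. Over all probe sets, 6.46% rose and 7.64% fell in the former comparison, and 3.6% and 2.98% in the latter. No gene passed among 6 tested for pyruvate entry or 13 for import in either of those comparisons. Leaving out 1 array at a time, each of these pathway calls held without either CD14-deficient LPS array and was lost without each of the others, except that Fh1 under LPS in the wild type was lost only without wild-type LPS at 48 h (adjusted p = 0.0514), and Gabpb1 with thapsigargin held also without either wild-type LPS array.

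Promoters were searched for letters of sites for the ETS family, to which GABP belongs, for NRF1 and for YY1, factors known to act on respiratory genes. RefSeq promoter windows (GRCm38.p6, 300 bases around each start) were matched for 73 of the 87 member genes. The letters CCGGAAG, a core of ETS-family sites, were found on either strand in 27.4% of these genes, against 9.93% of all genes in the table and 22.7% of other genes tested on the array. GCATGCGC, of NRF1 sites, was found in 15.1%, against 3.05% and 6.61%. AAGATGGCG, of YY1 sites, was found in 8.22%, against 1.64% and 4.02%. Any of these was found in 31 member genes (42.5%), against 13.6% and 30.6%. A match is a run of letters and not a site shown to be bound.

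3 windows are shown for the members that changed on more than 1 probe set, Ndufs8 and Ndufb7, which fell, and Uqcr10, which rose. They are given 5′ to 3′ on the strand of the gene, with motif letters in capitals, which mark CCGGAAG or its reverse complement in Ndufs8 and Ndufb7. Uqcr10 has none of the 3 motifs in this window. Among the members called for LPS in the wild type that have a matched window, CCGGAAG was found in 1 of 4 genes that rose, Sdhd. It was found in 2 of 4 genes that fell. A link between motif and direction was not tested.
Ndufs8, chr19:3912725-3913024, minus strand: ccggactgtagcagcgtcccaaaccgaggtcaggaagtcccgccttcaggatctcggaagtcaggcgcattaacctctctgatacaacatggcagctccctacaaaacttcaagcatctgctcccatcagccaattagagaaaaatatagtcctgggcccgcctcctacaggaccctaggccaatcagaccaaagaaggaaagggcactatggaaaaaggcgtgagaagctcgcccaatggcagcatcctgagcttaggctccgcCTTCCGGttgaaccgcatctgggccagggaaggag
Ndufb7, chr8:83566508-83566807, plus strand: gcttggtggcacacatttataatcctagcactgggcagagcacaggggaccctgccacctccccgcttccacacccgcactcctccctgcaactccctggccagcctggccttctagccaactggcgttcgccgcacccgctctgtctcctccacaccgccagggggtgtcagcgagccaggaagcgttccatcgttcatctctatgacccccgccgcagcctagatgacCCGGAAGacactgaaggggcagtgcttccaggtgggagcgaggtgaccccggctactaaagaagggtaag
Uqcr10, chr11:4704295-4704594, minus strand: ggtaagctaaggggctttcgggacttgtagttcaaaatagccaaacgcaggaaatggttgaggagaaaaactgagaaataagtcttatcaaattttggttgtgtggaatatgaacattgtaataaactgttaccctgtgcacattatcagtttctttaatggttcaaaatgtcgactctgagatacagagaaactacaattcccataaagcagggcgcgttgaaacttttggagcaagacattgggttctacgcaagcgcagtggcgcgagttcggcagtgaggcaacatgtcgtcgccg

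The members varied together only in part. Over the 10 arrays, 81 of 145 had a Pearson correlation above 0.5 with the mean z-score of all members, to which each contributes; the median was 0.61, and 33 were negative. The non-member probe sets most like that mean were those of Hcls1 (r = 0.958), Ech1 (0.948), Rnf5 (0.944), Trappc2l (0.939) and S100a1 (0.938). These are descriptions over 10 arrays that share genotype, treatment and time.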

How the data were processed

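The deposited value table holds 1 column for each of the 10 arrays. Its values are linear intensity signals of 22690 probe sets that the authors computed with MAS5, per the submitters' processing notes; the sources used here do not give its version or target. RNA was extracted with Trizol and cleaned on columns, and 0.3 µg was amplified to biotin-labelled cRNA, per the labels. The 2% trimmed means of the columns ran from 444 to 553, so each array was scaled to 509. A floor of 13.3, the 25th percentile over all arrays, was applied before taking log2, and 64 control probe sets were left out.

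limma 3.58.1 in R 4.3.3 fitted the 12660 probe sets that passed the filter, with an intensity trend, in 9 comparisons, and was tested on simulated data. Probe sets were named through the platform annotation (20393 with 1 symbol, 691 with several, 1606 with none); probe sets were ordered by mean signal only to pick the brightest of a gene or complex, and marker signals were summed as a description. Depth does not apply to arrays; their number limits the precision.

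The members, lists and tests were chosen with earlier results of these data known. Named members were, in each comparison, up to 10 called probe sets by size of change; in each complex the brightest member and, for genotype under LPS and thapsigargin in CD14-deficient cells, the 2 largest rises and falls; the isoform pairs, the c-ring, Sdha to Sdhd and the assembly factors. Atp5a1 and Ndufa2 were called for LPS in the wild type but lie outside its 10 largest called changes, and were named beyond this rule. Others (Atp5md in unstimulated cells, Cox5b 1416902_a_at, Cox6b1 1416565_at) were named after their values were seen, and pathway genes named are those called. Promoters came from a RefSeq table (GRCm38.p6). Alternatives changed scaling, floor, filter, probe sets per gene, intensity trend, the term for time and the arrays used.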

Additional observations from a re-analysis of the deposited data

How the results depend on the processing

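No paired analysis was possible because each condition is 1 array and the labels give no shared replicate number. Called members moved most with the arrays used. Leaving out 1 stimulated array at a time gave 0 to 51 called members for LPS in the wild type (15 with all arrays), 0 to 43 for LPS in CD14-deficient cells (0), 0 to 36 for genotype under LPS (1), 0 to 3 for thapsigargin in the wild type (0), 0 to 42 for thapsigargin in CD14-deficient cells (3), 0 to 8 and 0 to 11 for the differences in LPS and thapsigargin response (0 and 0). Without both arrays of lowest cRNA yield, where 1 residual degree of freedom is left by construction, the counts were 53, 43, 24, 16, 75, 4 and 15 in that order, and 1 for genotype under LPS with thapsigargin (0). Without both of those arrays, many probe sets outside the members were called as well. The share called among all probe sets was above that among the members in most of these comparisons. It was below it for LPS and for thapsigargin in CD14-deficient cells. Both groups given LPS alone then held 1 array each, so nothing particular to the respiratory genes is concluded from these counts. With 1 probe set per gene, 82 members were tested. The count was then 4 for LPS in the wild type (4.88%, against 15.9% of all genes tested). For thapsigargin in CD14-deficient cells it was 1 (1.22%, against 6.59%). With no filter, 1 member was called for LPS in CD14-deficient cells (0.625%, against 2.48% of all probe sets). For thapsigargin in them it was 0, against 0.75% of all probe sets. Genotype under LPS gave 0 without scaling (2.87% of all probe sets) and 0 with the strict filter (3.40%). Without the term for time it gave 2 (1.38%, against 5.49%). The shift between 48 and 60 h called 0 members throughout. Uqcr10 1424364_a_at reversed for thapsigargin in CD14-deficient cells, from -0.02 to 0.42 without CD14-deficient LPS at 60 h (adjusted p = 0.0383), with -0.45 without the array at 48 h; the cause was not tested. Over 236 checks of the 15 named called changes, 144 kept direction and call, 92 lost the call and 0 reversed. Without scaling, the median of all probe sets moved from 0.00 to 0.13 for LPS in CD14-deficient cells, from -0.07 to -0.28 for the difference in LPS response and from 0.05 to 0.15 between the times. Several called probe sets lie near the floor in 1 group, which limits what their size of change can show.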
